A study of Mus musculus with 64 samples.

Results

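The serine/arginine-rich (SR) splicing factors described here are the 10 genes Srsf1, Srsf2, Srsf3, Srsf4, Srsf5, Srsf6, Srsf7, Srsf9, Srsf10 and Srsf11, taken by gene name from the transcript tables of 64 mouse brain libraries. They hold 72 of the 112714 annotated transcripts in the tables and 10 of the 46686 gene names. Of the 72 transcripts, 26 are annotated as protein-coding, 22 as retained-intron, 12 as nonsense-mediated decay and 12 as processed transcripts. All 10 genes and 69 of the 72 transcripts reached a mean of 0.1 FPKM in either tissue and entered the tests of levels, and the 3 that did not were Srsf11 transcripts. The tests of how a gene is divided among its isoforms took 71 transcripts, all but the single one of Srsf7. FPKM stands for fragments per kilobase per library size, so that levels of different genes can be compared per length.

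Male C57BL/6N mice of 8 to 10 weeks received a single intraperitoneal injection and were killed 2 h later. The drugs were haloperidol at 1 mg/kg and risperidone at 0.5 mg/kg (antipsychotics that block dopamine or dopamine and serotonin receptors), methamphetamine at 2 mg/kg (a releaser of monoamines), mianserin at 20 mg/kg (an antidepressant that blocks serotonin, adrenergic and histamine receptors), venlafaxine at 16 mg/kg (an inhibitor of serotonin and noradrenaline reuptake) and ketamine at 20 mg/kg (a blocker of NMDA receptors). Haloperidol and risperidone were dissolved in saline with a drop of hydrochloric acid, whereas the controls were labelled only as saline. The nucleus accumbens (NAc) and prefrontal cortex (PFCx, which held cingulate, infralimbic and prelimbic cortex with some dorsal peduncular cortex) were dissected with needles. Each drug had 4 libraries per tissue and saline had 8, 4 in set I and 4 in set II. The mice carried no transgene, a single dose and time were used, and the labels did not tie both tissues of an animal together.

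SR proteins bind exonic sequences through RNA recognition motifs and recruit the splicing machinery through a domain rich in arginine and serine, which is phosphorylated by the Clk and Srpk kinases. They are known to limit their own amounts: most SR genes can include a poison exon or keep an intron that carries a stop codon. The resulting RNA is degraded by nonsense-mediated decay or held in the nucleus, and makes no full-length protein. Changes in the balance of coding and noncoding SR isoforms are known from stress, temperature and neuronal activity.

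The gene family was selected on a measured value of these libraries, the FPKM of the Srsf5 transcript ENSMUST00000153056, whose lower level after mianserin was already known. Drug differences of Srsf5 are therefore given as a description with no p-value. Among tests of the drugs, Srsf5 was counted only for the interaction of drug and tissue and in the counts under alternative settings. For the other 9 genes, the adjusted p-values are from limma on log2(FPKM + 1) over all 86331 transcripts or 36989 gene sums tested, and a feature was called at an adjusted p under 0.05.

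The results turned on an intron of Srsf5 and an intron of Srsf6, each the longest intron of the coding isoforms of its gene. The sequences below (GRCm38, + strand, 5′ to 3′) show where these introns begin and end, since their retention places a stop codon in the reading frame. At the donor side, 20 exon bases precede the intron, and capitals mark the donor dinucleotide and the first stop codon in frame. At the acceptor side, the last 60 intron bases precede 20 exon bases, and capitals mark the acceptor dinucleotide.
Srsf5 donor side, chr12:80947846-80947925: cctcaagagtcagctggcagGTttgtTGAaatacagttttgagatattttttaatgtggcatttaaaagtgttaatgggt
Srsf5 acceptor side, chr12:80949035-80949114: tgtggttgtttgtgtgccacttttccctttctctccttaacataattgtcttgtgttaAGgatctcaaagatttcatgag
Srsf6 donor side, chr2:162932123-162932330: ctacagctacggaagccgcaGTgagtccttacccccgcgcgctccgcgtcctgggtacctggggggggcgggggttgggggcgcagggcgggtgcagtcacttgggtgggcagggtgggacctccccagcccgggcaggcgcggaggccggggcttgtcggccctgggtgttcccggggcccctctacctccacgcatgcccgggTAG
Srsf6 acceptor side, chr2:162933366-162933445: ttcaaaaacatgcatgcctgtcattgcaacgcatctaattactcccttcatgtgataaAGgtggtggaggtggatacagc

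The Srsf5 intron (chr12:80947866-80949094) is 1229 bases long with a GC content of 36.3%, and its first stop codon in frame, TGA, ends 9 bases into the intron. It is kept in the retained-intron transcript ENSMUST00000153056, called Srsf5-RI here, and also in the longer retained-intron transcripts ENSMUST00000133783 and ENSMUST00000151036. The Srsf6 intron (chr2:162932143-162933425) is 1283 bases long with a GC content of 48.2%, and its first stop codon in frame, TAG, ends 188 bases into the intron. It is kept in ENSMUST00000193611, called Srsf6-RI. The same intron holds the 268-base poison exon of the nonsense-mediated decay transcript ENSMUST00000017065, called Srsf6-NMD, so that reads from the poison exon can be assigned to either transcript. The poison exon is shown from its first base to its stop codon, in capitals.
Srsf6 poison exon, chr2:162932815-162932966: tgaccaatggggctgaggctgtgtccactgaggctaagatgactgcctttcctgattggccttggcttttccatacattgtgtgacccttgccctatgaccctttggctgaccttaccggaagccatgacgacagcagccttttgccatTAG

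The depth estimated from read coverage and FPKM was 1.52 to 3.26 gigabases per library with a median of 2.39. In the NAc, the saline set I, haloperidol, risperidone and methamphetamine libraries had 85287 to 87827 transcripts above 0 FPKM, and the saline set II, mianserin, venlafaxine and ketamine libraries had 107099 to 110556. In the PFCx all libraries had 108556 to 110852. The labels give a set only for saline. The set of each drug was assigned from these NAc numbers, and the PFCx libraries show no such split. A further comparison of each drug used the saline set assigned to it, called its own set, with 4 libraries. Saline set II differed from set I in 1.15% of all transcripts in the NAc, among them 1 SR transcript, and in 2.56% in the PFCx, among them 3. The defining markers matched the labelled tissues: the sum of 9 striatal neuron genes was 567 to 766 FPKM in the NAc saline libraries and 26.3 to 82.9 in the PFCx, and that of 8 cortical projection neuron genes was 29.8 to 79.2 and 198 to 253. In such bulk tissue, fewer cells of a type and less RNA per cell cannot be told apart. The libraries came from ribo-depleted total RNA, in which reads from unspliced precursors and from stable retained-intron RNA cannot be told apart either.

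After saline, Srsf5 and Srsf11 had the highest summed FPKM of the family and Srsf4 the lowest in both tissues. In the NAc the sums were 37.6 ± 3.34 FPKM for Srsf5 (SD, n = 8), 33.1 ± 3.56 for Srsf11, 29.0 ± 2.84 for Srsf1 and 16.9 ± 1.24 for Srsf2. Srsf3 (14.7 ± 2.10), Srsf6 (14.4 ± 0.375), Srsf9 (11.1 ± 1.38), Srsf10 (9.96 ± 1.20), Srsf7 (9.79 ± 0.819) and Srsf4 (4.71 ± 0.913) followed. Neighbours in this order had overlapping ranges except at Srsf1 above Srsf2, Srsf6 above Srsf9 and Srsf7 above Srsf4. In the PFCx the order was Srsf5, Srsf11, Srsf1, Srsf3, Srsf2, Srsf6, Srsf9, Srsf10, Srsf7 and Srsf4, from 33.2 to 3.56 FPKM, and the ranges of neighbours did not overlap only at Srsf11 above Srsf1 and Srsf7 above Srsf4.

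**Figure D1:**
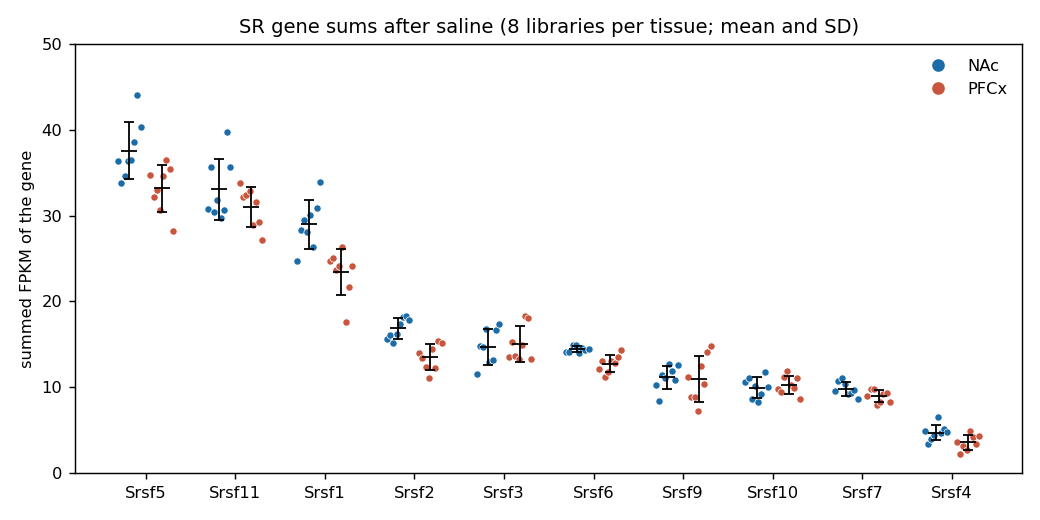
Summed FPKM (vertical axis) of the 10 SR genes (horizontal axis) in the 8 saline libraries of each tissue, with a point for each library and the mean and SD in black. Srsf5, Srsf11 and Srsf1 have the highest means in both tissues, although the lowest PFCx library of Srsf1 (17.6 FPKM) lies below the highest of Srsf3 (18.2 FPKM), and Srsf4 has the lowest, at of 4.71 FPKM (NAc) and 3.56 FPKM (PFCx).

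The members differed in which kind of isoform held most of the gene. The share of an isoform is its FPKM multiplied by its length, divided by the sum over the gene, and is given as a mean over the 64 libraries. A coding isoform led in Srsf1 (ENSMUST00000139129, 43.2%), the founding SR protein of constitutive and alternative splicing. The same held for Srsf3 (ENSMUST00000130216, 49.0%), the smallest SR protein, for Srsf9 (ENSMUST00000031513, 64.4%) and for Srsf10 (ENSMUST00000105853, 40.3%), a factor known to repress splicing when dephosphorylated. Srsf6 was led by the coding ENSMUST00000130411 at 52.4%, ahead of Srsf6-RI at 28.1% and Srsf6-NMD at 19.4%. Srsf2, which encodes the speckle protein SC35, was divided between the coding ENSMUST00000092404 at 49.5% and the retained-intron ENSMUST00000138484 at 47.6%.

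A retained-intron isoform led in the remaining genes that have several isoforms. It was ENSMUST00000030743 in Srsf4 (50.1%), Srsf5-RI in Srsf5 (48.9%) and ENSMUST00000133090 in Srsf11 (29.3%), a gene known to support the inclusion of neuronal microexons. Srsf7, a factor in splicing and mRNA export, had a single row in the tables, the coding ENSMUST00000063417, so that its isoforms could not be compared.

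The first comparison asked how the family differed between the tissues without drug. Srsf1, Srsf2, Srsf4, Srsf5 and Srsf6 were higher in the NAc than in the PFCx by 0.17 to 0.33 on the log2(FPKM + 1) scale of gene sums. The differences were 0.30 for Srsf1 (adjusted p = 0.00742), 0.30 for Srsf2 (0.00226), 0.33 for Srsf4 (0.0455), 0.17 for Srsf5 (0.0382) and 0.17 for Srsf6 (0.00959). The median over all genes was -0.10, and 5 of 10 members were called where 33.9% of all gene sums were. The Srsf4 and Srsf5 calls were lost in 11 and 8 of the 16 fits that left out a saline library. Under 6 alternative settings, Srsf1, Srsf4, Srsf5 and Srsf6 lost the call in 1, 3, 4 and 2, and Srsf2 in 0.

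Among transcripts, 7 of 69 were called between the tissues beside 13.7% of all transcripts, and all 7 were higher in the NAc. Both main Srsf2 isoforms were among them, the coding one by 0.35 (adjusted p = 0.0128) and the retained-intron one by 0.34 (adjusted p = 0.000748). Srsf5-RI was higher by 0.28 (adjusted p = 0.0108) and Srsf6-RI by 0.41 (adjusted p = 0.00454), whereas Srsf6-NMD differed by 0.22 with no call (adjusted p = 0.4998). The short Srsf5 transcripts ENSMUST00000125814 (0.59, adjusted p = 0.0459) and ENSMUST00000152662 (1.25, 0.0477) and the Srsf1 retained-intron transcript ENSMUST00000171976 (0.96, 0.0383) lost the call in 11, 12 and 11 of the 16 fits that left out a library. Of the calls that held without any single library, that of Srsf5-RI was lost in 3 of 6 alternative settings. Those of Srsf6-RI and of both main Srsf2 isoforms were lost in 1 of 6 each. The median of all transcripts was -0.07.

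A single isoform share was called between the tissues, that of the main coding Srsf9 isoform, which was higher in the NAc by 0.13 on the arcsine square root scale (adjusted p = 0.0235), beside 1.03% of all isoform shares. This call was lost without PFCx saline II replicate 1 or replicate 3, and in 2 of 5 alternative settings. For the coding share of a gene, the summed share of its protein-coding isoforms, limma called 0 of 9 members beside 1.7% of all genes, and the smallest adjusted p was 0.107, for Srsf5 and Srsf9. The tissues also differed in cell makeup: the sum of 5 oligodendrocyte genes was 512 to 703 FPKM for the NAc and 131 to 184 for the PFCx, and its part in the differences was not tested.

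The main question was which SR isoforms the drugs changed. Srsf5-RI, the transcript on which the family was chosen, was lower after mianserin than in every saline library of both tissues. In the NAc it was 12.3 to 16.4 FPKM after saline, with a median of 14.5, and 6.46, 5.40, 6.19 and 5.38 after mianserin. In the PFCx it was 9.94 to 13.6 after saline, with a median of 11.8, and 5.74, 4.28, 4.57 and 6.27 after mianserin. The NAc difference was -1.15 and the PFCx difference -1.02 on the log2(FPKM + 1) scale.

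Risperidone was the other drug with a lower Srsf5-RI. After risperidone it was 8.90, 7.06, 7.18 and 8.14 FPKM in the PFCx, all below the saline range, a difference of -0.51. In the NAc it was 11.6, 8.44, 12.7 and 11.3 after risperidone, which overlapped saline at its lower end. Haloperidol, methamphetamine, venlafaxine and ketamine libraries lay at 12.4 to 18.5 FPKM in the NAc and 9.70 to 14.1 in the PFCx, around the saline range.

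**Figure D2:**
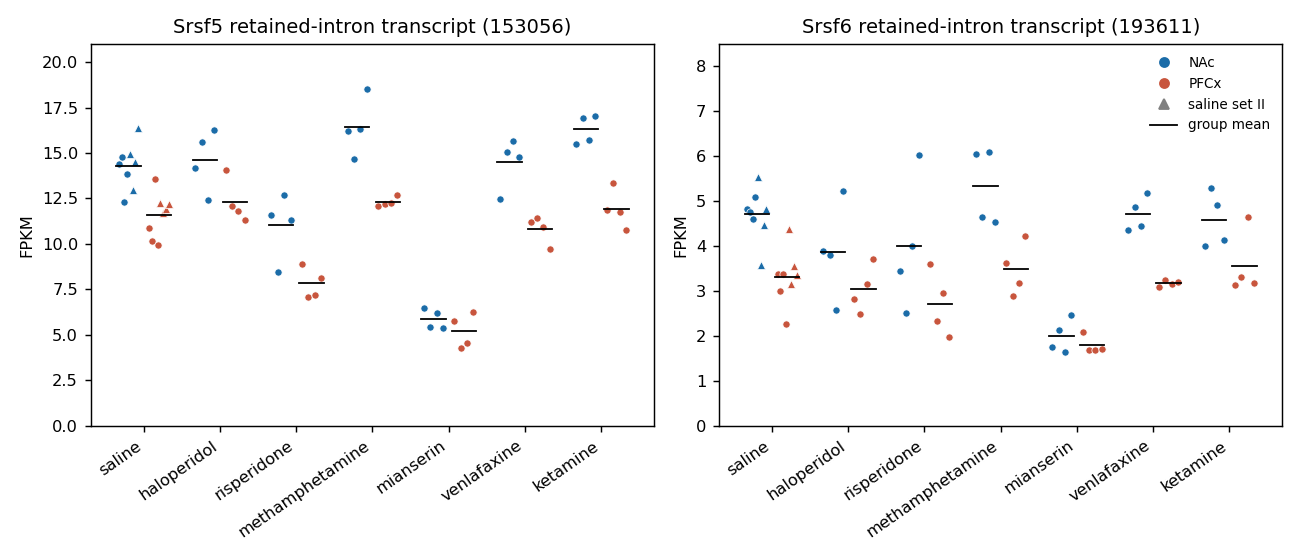
FPKM (vertical axis) of the retained-intron transcripts of Srsf5 (ENSMUST00000153056, left) and Srsf6 (ENSMUST00000193611, right) in each library by drug (horizontal axis), in blue for the NAc and red for the PFCx, with black lines at the group means and triangles for saline set II. The mianserin means are lowest in both panels, at 5.86 and 5.21 FPKM for Srsf5 and 2.00 and 1.79 for Srsf6, in the NAc and PFCx, and 1 PFCx risperidone library of Srsf6 (1.98) lies below the highest mianserin library (2.09).

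The lower Srsf5-RI went with a higher share of coding isoforms in Srsf5. The coding share was 26.7% to 40.0% in the NAc saline libraries and 56.6%, 57.4%, 59.0% and 56.9% after mianserin. In the PFCx it was 33.1% to 42.2% after saline and 59.6%, 60.4%, 62.2% and 58.8% after mianserin, with no overlap in either tissue. The summed FPKM of the 5 coding isoforms was 14.5 ± 2.84 after saline (n = 8) and 20.7 ± 2.37 after mianserin (n = 4) in the NAc. The PFCx values were 15.3 ± 1.35 and 21.3 ± 1.05.

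The other Srsf5 isoforms that keep the same intron were at low levels after both saline and mianserin. ENSMUST00000151036 was at 1.29 ± 0.402 FPKM after saline and 1.19 ± 0.311 after mianserin in the NAc, and at 0.860 ± 0.154 and 1.17 ± 0.0854 in the PFCx. ENSMUST00000133783 was at 0.536 ± 0.366 and 0.585 ± 0.246 in the NAc. The processed transcript ENSMUST00000152662 was 2.46 to 5.97 FPKM after saline in the NAc and 1.55, 0.731, 2.25 and 0.505 after mianserin, but its mean of 1.33 after venlafaxine was also low. The processed transcript ENSMUST00000125814 was 0.923 to 3.37 FPKM after saline in the NAc. After mianserin it was 0.202, 0.286, 0.207 and 0.310 there, with no overlap. In the PFCx it was 0.197 to 1.72 after saline and at most 0.352 after mianserin. The 3 processed Srsf5 transcripts together were also low after venlafaxine. Their NAc sum was 6.10 ± 1.62 FPKM after saline, 1.63 ± 0.633 after mianserin and 1.83 ± 1.11 after venlafaxine. In the PFCx the sums were 3.17 ± 2.09, 2.00 ± 0.928 and 1.36 ± 1.21. Cufflinks divides the reads of a gene among such overlapping isoforms by likelihood, so that an error in 1 isoform can pass to another.

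The Srsf5 gene as a whole differed less than its isoforms. Its summed level in the NAc was 33.8 to 44.1 FPKM after saline and 31.1 ± 3.52 after mianserin (n = 4), and in the PFCx it was 33.2 ± 2.75 and 31.4 ± 1.06.

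Outside Srsf5, mianserin lowered the retained-intron transcript of Srsf6 in both tissues. Srsf6 encodes a close relative of Srsf5 with a pair of RNA recognition motifs. In the NAc, Srsf6-RI was 3.58 to 5.54 FPKM after saline, with a median of 4.79, and 1.76, 2.14, 1.63 and 2.45 after mianserin. In the PFCx it was 2.27 to 4.38 after saline, with a median of 3.36, and 2.09, 1.68, 1.68 and 1.71 after mianserin. All 4 mianserin libraries lay below all 8 saline libraries in each tissue, and the mean relative to saline was 0.424 for the NAc and 0.541 for the PFCx.

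The NAc difference of Srsf6-RI was -0.93 ± 0.14 (SE) on the log2(FPKM + 1) scale (adjusted p = 0.000539), and the PFCx difference was -0.62 ± 0.11 (adjusted p = 0.00819). Against the saline set II alone, the set assigned to mianserin from the NAc transcript numbers, the differences were -0.90 (adjusted p = 0.00943) and -0.72 (adjusted p = 0.00426). The call held in every fit that left out a library, with adjusted p-values up to 0.00522 in the NAc and 0.0477 in the PFCx. No other drug changed Srsf6-RI at the threshold, and the values nearest to it were differences of -0.25 after haloperidol in the NAc (adjusted p = 0.512) and -0.22 after risperidone in the PFCx (adjusted p = 0.499).

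**Figure D3:**
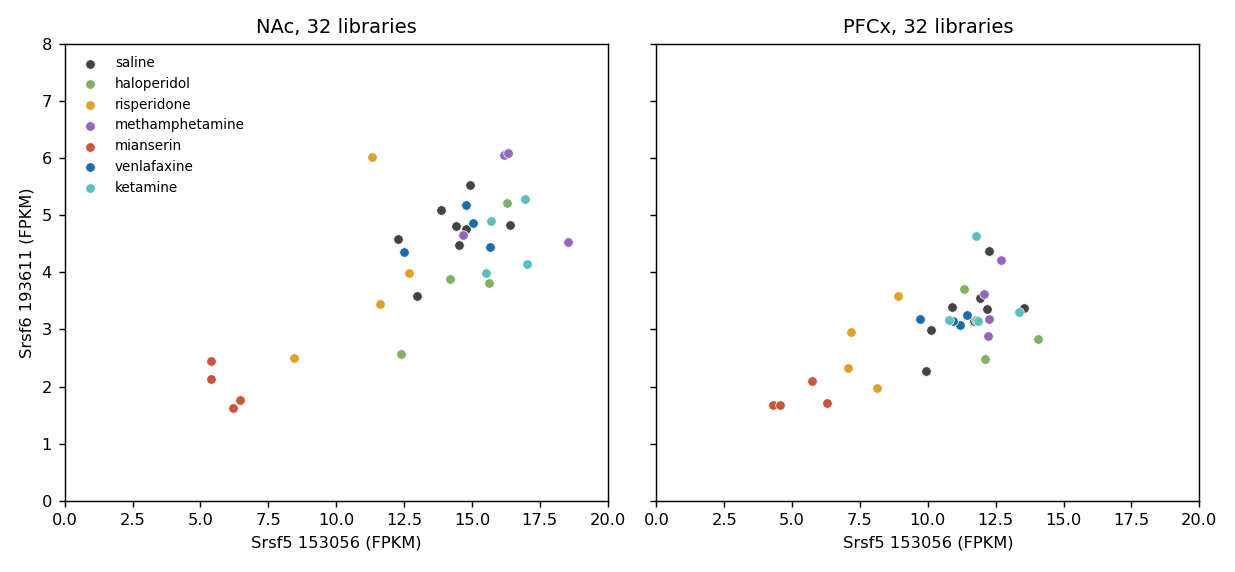
FPKM of the Srsf6 retained-intron transcript (ENSMUST00000193611, vertical axis) against that of Srsf5 (ENSMUST00000153056, horizontal axis) in the 32 libraries of each tissue, coloured by drug. The mianserin libraries have the lowest Srsf5 levels of each panel, at 5.38 to 6.46 FPKM in the NAc and 4.28 to 6.27 in the PFCx, and 3 of the 4 PFCx mianserin libraries share an Srsf6 level of 1.68 to 1.71.

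The coding isoform of Srsf6 took up a larger part of the gene after mianserin in the NAc. ENSMUST00000130411 was 5.23 FPKM on average after saline, in a range of 4.52 to 6.05, and 6.27, 6.66, 6.72 and 5.71 after mianserin. This difference in FPKM was not called, and the means after venlafaxine (6.01) and ketamine (5.93) were also above that after saline. The share of ENSMUST00000130411 rose from 46.6% ± 3.70 after saline (n = 8) to 66.6% ± 6.02 after mianserin (n = 4). This rise was 0.20 on the arcsine square root scale (adjusted p = 0.000382, and 0.0141 against the own saline set). The share of Srsf6-RI fell from 34.5% ± 3.79 to 17.1% ± 2.63 (adjusted p = 0.0126), but this call was lost against the own saline set (adjusted p = 0.151) and without NAc mianserin replicate 1 or replicate 3.

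Srsf6-NMD, the isoform with the poison exon, did not show the pattern of Srsf6-RI. After mianserin it was 3.27 ± 0.795 FPKM in the NAc, against 4.45 ± 0.692 after saline, and 3.62 ± 0.946 in the PFCx, against 3.96 ± 1.89. The PFCx saline libraries ranged from 1.65 to 6.81 FPKM. Set II, the set assigned to mianserin, was lower there than set I, with the call given under other observations. The pooled PFCx mean thus joins unlike libraries, and the difference from set II alone is not given here. Its share was 18.8% after saline and 16.1% after mianserin in the NAc. Its lowest mean in the NAc was after venlafaxine, at 2.38 FPKM, and its highest was after haloperidol, at 6.18.

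Summed over both coding isoforms, the coding share of Srsf6 was 41.3% to 51.1% in the NAc saline libraries and 68.95%, 67.1%, 72.7% and 58.3% after mianserin. The groups did not overlap, and the rise was called (adjusted p = 0.000102, and 0.00564 against the own saline set). In the PFCx the coding share was 58.5%, 66.6%, 68.7% and 67.2% after mianserin and 43.3% to 60.7% after saline (adjusted p = 0.156). Its saline sets stood apart in the PFCx, at 43.3% to 51.9% in set I and 57.4% to 60.7% in set II. Of all coding shares, 0.293% were called after mianserin in the NAc, and outside Srsf5 the SR genes called were 1 of 8 (Srsf6). In the PFCx 0.155% of all coding shares were called and limma called 0 of these 8, with 1 at an unadjusted p under 0.05 beside 8.62% of all coding shares.

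**Figure D4:**
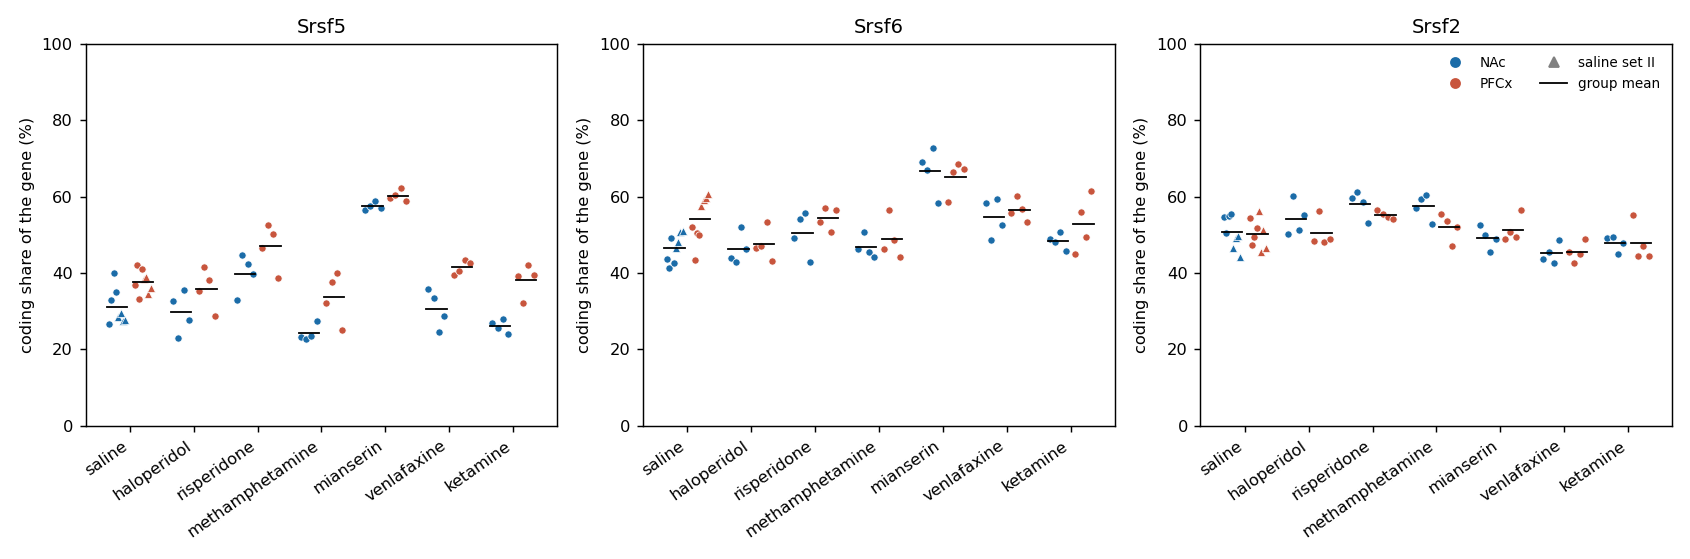
Share of protein-coding isoforms (vertical axis, percent of FPKM times length) of Srsf5, Srsf6 and Srsf2 in each library by drug (horizontal axis), in blue for the NAc and red for the PFCx, with black lines at the group means and triangles for saline set II. The mianserin libraries are highest for Srsf5, at 56.6% to 62.2% in both tissues. For Srsf6 in the NAc they lie at 58.3% to 72.7%, where the highest venlafaxine library (59.5%) overlaps them.

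As a gene, Srsf6 fell slightly after mianserin in the NAc. Its summed level was 13.96 to 14.9 FPKM after saline and 11.1, 12.3, 10.9 and 12.5 after mianserin, a difference of -0.28 (adjusted p = 0.0138). The call did not hold against the own saline set (adjusted p = 0.0812) or without NAc mianserin replicate 3 (adjusted p = 0.0641). In the PFCx the difference was -0.15 (adjusted p = 0.448).

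Srsf2 was the other gene called after mianserin, in the NAc, and there its coding isoform was among the lower ones. ENSMUST00000092404 was 6.85 to 9.68 FPKM after saline, with a median of 8.25, and 6.24, 5.92, 6.40 and 5.04 after mianserin (difference -0.40 ± 0.09, adjusted p = 0.0277). The saline sets lay apart, at 8.83 to 9.68 in set I and 6.85 to 7.66 in set II (adjusted p = 0.0450). Against set II the mianserin difference was -0.24 with no call (adjusted p = 0.427), and the mean after venlafaxine, 6.14, was similarly low. The call was also lost without any NAc saline I library and without NAc mianserin replicate 2 or replicate 4, with adjusted p-values of 0.0547 to 0.145.

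The summed level of Srsf2 in the NAc was 15.1 to 18.3 FPKM after saline and 12.1, 12.3, 15.6 and 10.9 after mianserin. The difference of -0.39 was called (adjusted p = 0.00854), but not against the own saline set (-0.30, adjusted p = 0.173) or without NAc mianserin replicate 4 (adjusted p = 0.0586). The retained-intron isoform ENSMUST00000138484 was 8.19 ± 0.709 FPKM after saline and 6.29 ± 0.920 after mianserin (difference -0.34, adjusted p = 0.0987). In the PFCx the summed Srsf2 level differed by -0.25 (adjusted p = 0.263).

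The remaining 7 genes showed no called change of gene sum after mianserin. Srsf3 was at 14.7 FPKM after both saline and mianserin in the NAc, and Srsf1 at 29.0 and 27.0. The differences in the NAc were -0.11 for Srsf7, -0.22 for Srsf4, -0.26 for Srsf9, 0.12 for Srsf10 and 0.16 for Srsf11. Srsf10 and Srsf11 were also higher in the PFCx, by 0.24 and 0.13, with adjusted p-values of 0.420 and 0.424. The markers gave no called change after mianserin in either tissue. The sum of the blood genes Hba-a1 and Hbb-bs was lower, at 14.3 to 21.3 FPKM after mianserin against 20.9 to 52.5 after saline in the NAc and 16.2 to 23.0 against 19.9 to 68.1 in the PFCx, and its part in the results was not tested.

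**Figure D5:**
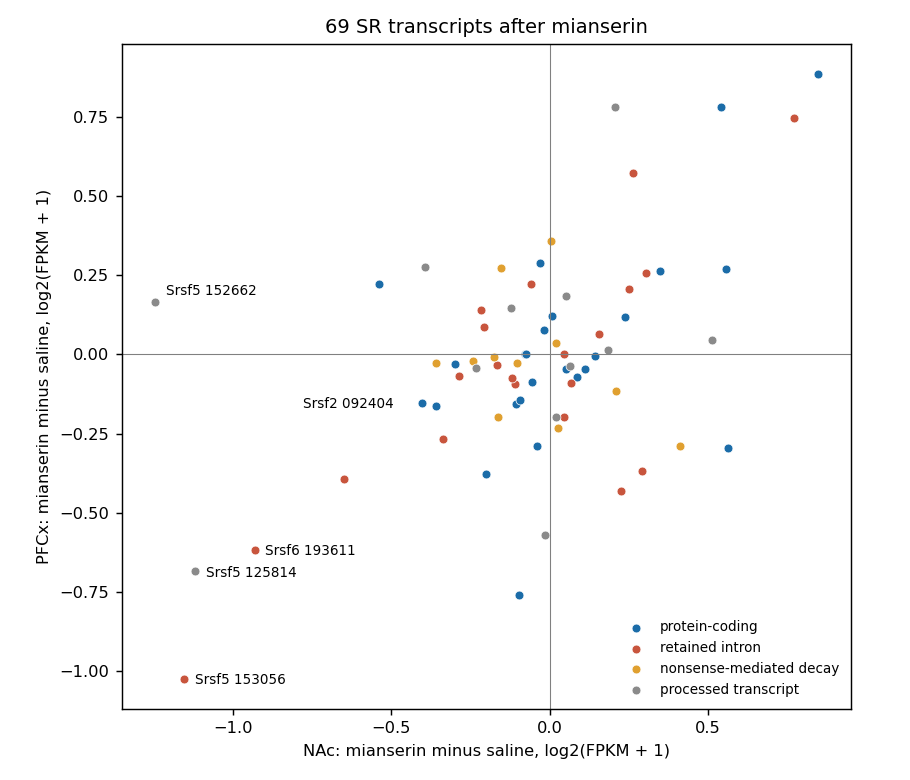
Difference between mianserin and saline on the log2(FPKM + 1) scale in the NAc (horizontal axis) and PFCx (vertical axis) for the 69 SR transcripts tested, coloured by annotated type. The retained-intron transcripts of Srsf5 (ENSMUST00000153056, -1.15 and -1.02) and Srsf6 (ENSMUST00000193611, -0.93 and -0.62) lie at the lower left with the processed Srsf5 transcript ENSMUST00000125814 (-1.12 and -0.68), while the median of the 18 retained-intron transcripts outside Srsf5 is -0.03 and -0.05.

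The fall of Srsf6-RI was not shared by all retained-intron transcripts of the family. Among those outside Srsf5 only Srsf6-RI was called after mianserin, which does not show that the others were unchanged. Of the 18 retained-intron SR transcripts outside Srsf5, 9 were lower and 9 higher after mianserin in the NAc, with a median of -0.03 beside 0.01 for all 14748 retained-intron transcripts. In the PFCx 10 of 18 were lower, with a median of -0.05 beside -0.03. The median over all 69 SR transcripts was -0.03 in both tissues, beside 0.02 and -0.02 for all transcripts.

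Among transcripts, mianserin gave 2 calls among the 57 SR transcripts outside Srsf5 in the NAc, Srsf6-RI and coding Srsf2, beside 0.504% of all transcripts. In the PFCx it gave 1 of 57, Srsf6-RI, beside 0.351%. Against the own saline set alone, 0.162% of transcripts were called in the NAc, with 1 of the 57, and 0.916% in the PFCx, with 2. The one added in the PFCx was the processed Srsf10 transcript ENSMUST00000129718. It was 3.19, 2.69, 3.46 and 3.76 FPKM after mianserin and 0.605 to 2.69 after saline, and the lowest mianserin library lay within the saline range. Its mianserin difference was 0.95 against set II (adjusted p = 0.0250) and 0.78 against all saline libraries (adjusted p = 0.0697). The PFCx means of this transcript were similar after haloperidol (3.02), risperidone (3.10) and mianserin (3.28), beside 1.58 after saline. Among isoform shares outside Srsf5, mianserin gave 2 of 59 in the NAc, both main Srsf6 isoforms, beside 0.158%. The shares of a gene add up to its whole, so that these 2 calls and that of the Srsf6 coding share are not independent. In the PFCx limma called 0 of 59 beside 0.0602%, with 7 at an unadjusted p under 0.05 beside 6.41% of all isoform shares. Among gene sums outside Srsf5 it gave 2 of 9 in the NAc, Srsf2 and Srsf6, beside 1.85%. In the PFCx limma called 0 of 9 gene sums beside 0.676%, with 5 at an unadjusted p under 0.05 beside 9.61% of all genes.

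The other 5 drugs gave no called SR transcript outside Srsf5 in either tissue. In the NAc limma called 0 of 57 such transcripts after haloperidol, risperidone, methamphetamine, venlafaxine and ketamine, with 3, 5, 5, 7 and 2 at an unadjusted p under 0.05 beside 10.6%, 9.97%, 8.23%, 12.2% and 12.5% of all transcripts. The shares of all transcripts called were 0.188% after haloperidol, 0.16% after risperidone, 0.051% after methamphetamine, 0.0579% after venlafaxine and 0.2% after ketamine. In the PFCx the counts at an unadjusted p under 0.05 were 10, 5, 1, 6 and 7 of 57 for the same drugs, beside 11.1%, 10.7%, 7.05%, 6.12% and 6.8% of all transcripts. The called shares there were 0.0232%, 0.158%, 0.108%, 0.00116% and 0.00347%.

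Gene sums outside Srsf5 were not called by limma after these 5 drugs either. In the NAc 0, 2, 1, 2 and 3 of the 9 genes outside Srsf5 had an unadjusted p under 0.05 after haloperidol, risperidone, methamphetamine, venlafaxine and ketamine, beside 17.1%, 16%, 13.3%, 21.6% and 21% of all genes. The shares of all genes called were 0.722%, 0.727%, 0.195%, 1.82% and 1.97%. In the PFCx the counts at an unadjusted p under 0.05 were 3, 1, 2, 1 and 0 of 9, beside 13.8%, 14.5%, 8.87%, 7.16% and 8.15% of all genes, and the called shares were 0.162%, 0.511%, 0.351%, 0.00541% and 0.0162%. Against the own saline set, ketamine gave 1 call in the PFCx, the retained-intron Srsf11 transcript ENSMUST00000127778. It was 5.78, 3.50, 5.88 and 4.73 FPKM after ketamine and 0.689 to 2.90 after saline, with a difference of 1.20 against set II (adjusted p = 0.0327) and 1.12 against all saline libraries (adjusted p = 0.171).

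When the 6 drugs were tested together with a moderated F statistic, 7 of the 57 SR transcripts outside Srsf5 were called in the NAc, beside 11.6% of all transcripts, and 3 in the PFCx, beside 1.12%. In the NAc these were Srsf6-RI, Srsf6-NMD, coding Srsf2, the Srsf2 transcript ENSMUST00000190993 and 3 Srsf11 transcripts. In the PFCx they were Srsf6-RI, ENSMUST00000129718 of Srsf10 and ENSMUST00000127778 of Srsf11. When each drug was set against its own saline set, 1 of the 57 transcripts outside Srsf5 was called in each tissue. The share of all transcripts called in that fit is not given here, so that the lower counts are no result about SR transcripts. ENSMUST00000190993 had means of at most 0.892 FPKM over the groups. The main Srsf11 isoform, ENSMUST00000133090, followed the sample sets in the NAc: it was 5.61 to 6.28 FPKM on average after the 3 drugs of set I and 7.45 to 8.01 after the 3 of set II (adjusted p = 0.00224, and 0.838 against the own saline sets).

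Gene sums outside Srsf5 gave 4 of 9 called by the F statistic in the NAc (Srsf2, Srsf6, Srsf9 and Srsf11), beside 37% of all genes, and 0 in the PFCx, beside 3.35%. Isoform shares outside Srsf5 gave 3 of 59 in the NAc, beside 1.97%, and 0 in the PFCx, beside 0.0927%. Coding shares outside Srsf5 gave Srsf2 and Srsf6 in the NAc, 2 of 8 beside 3.35%, and 0 in the PFCx, beside 0.324%. When each drug was set against its own saline set, gene sums, isoform shares and coding shares outside Srsf5 gave 1 call each in the NAc. The share of all features called in those fits is not given here either. For Srsf2 the coding share was highest after risperidone and methamphetamine and lowest after venlafaxine in the NAc, and its mean after mianserin was close to that after saline. This order also followed the sample sets, with means of 54.2% to 58.1% after the 3 drugs of set I and 45.1% to 49.2% after the 3 of set II.

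The drug effects were then compared between the tissues. For the interaction of drug and tissue, limma called 0 of 69 SR transcripts, beside 1.59% of all transcripts. The mianserin difference of Srsf6-RI was larger in the NAc by 0.32 on the log2 scale, with an adjusted p of 0.644, and that of coding Srsf2 by 0.25.

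Transcripts of other genes followed the level of Srsf5-RI over the 64 libraries. Among 22838 transcripts with a mean of at least 1 FPKM in both tissues, the highest correlation with Srsf5-RI, on log2(FPKM + 1) centred on the tissue mean, belonged to a Pnisr transcript, ENSMUST00000108229 (Pearson r = 0.910). Retained-intron transcripts of Tra2a (0.852), Gpi1 (0.851) and Clk1 (0.825) were also among the 5 closest. Without the 8 mianserin libraries the values were 0.697 for Pnisr, 0.574 for Tra2a, 0.647 for Gpi1 and 0.574 for Clk1. Among the other SR genes, Srsf6-RI was closest (r = 0.806, and 0.512 without mianserin), with 9 transcripts above it in the whole list, and the retained-intron Srsf2 isoform came next (0.619, and 0.193 without mianserin). The points share depth, tissue and drug, and the values describe these libraries only.

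Other genes that act with SR proteins were examined by gene sum as a list of 42, of kinases, SR-related proteins, decay factors and other splicing regulators. The list was chosen with earlier results of these data known, so that its counts are a description and no independent test. After mianserin 5 of 42 fell and 0 rose in the NAc, beside 0.411% of all genes called lower: Clk1 (-0.59, adjusted p = 1.02e-05) and Clk2 (-0.53, 0.00472), kinases of SR proteins, Tra2a (-0.38, 0.00265), an SR-like splicing activator, Sfpq (-0.30, 0.0113) and the decay helicase Upf1 (-0.33, 0.0485). Clk1, Tra2a and Sfpq were also called against the own saline set. The median of the list was -0.02 beside 0.04 over all genes. In the PFCx 2 of 42 fell, Clk1 (-0.52, adjusted p = 0.000766) and Tra2a (-0.51, 5.87e-05), and 0 rose, beside 0.33% of all genes called lower. Both kept the call against the own saline set, where Clk4 was called as well (-0.36, adjusted p = 0.0163). Such gene sums add coding and noncoding isoforms, and the part of coding isoforms in these falls was not tested. The retained-intron transcripts of Tra2a and Clk1 named above were lower after mianserin. The log2 ratios to saline were -0.93 (NAc) and -1.18 (PFCx) for Tra2a, and -0.80 (NAc) and -0.83 (PFCx) for Clk1.

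Risperidone lowered Clk1 in the NAc (-0.45, adjusted p = 0.000485) and Tra2a in the PFCx (-0.30, 0.0367), and Smg5, a decay factor, rose in the NAc (0.36, 0.0132). Of the remaining drugs, methamphetamine raised Tra2a (0.33, adjusted p = 0.0246), venlafaxine lowered the splice-site factor U2af2 (-0.34, 0.0420) and ketamine raised the SR protein kinase gene Srpk2 (0.22, 0.0184), each in the NAc alone at the threshold, and the difference from the PFCx was not tested for these gene sums. Against the own saline sets, Clk1 after risperidone (adjusted p = 0.00240) and Tra2a after methamphetamine (adjusted p = 0.0298) kept the call, and the other calls of these 4 drugs did not.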

How the data were processed

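The authors depleted 1 µg of total RNA of ribosomal RNA, sequenced single reads on an Ion Proton instrument, aligned them to the mouse genome (mm10) with TopHat2 2.0.1, then Tmap, and ran Cufflinks 2.2.1 on the Ensembl annotation. The deposited tables hold, per annotated transcript, the FPKM by Cufflinks, which divides reads among overlapping isoforms. The deposited tables also give read coverage, a signal not scaled to depth, used here only to estimate depth; they hold no counts. The treatment of reads that match several places, such as pseudogene copies, is not given in the sources used here.

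Groups of tissue and drug follow the labels. The members and gene lists were chosen with earlier results of these data known. Transcripts with a mean of at least 0.1 FPKM in either tissue were tested on log2(FPKM + 1), which understates fold changes of low transcripts. Gene sums, isoform shares (arcsine square root, genes of at least 1 FPKM) and coding shares were tested likewise. Fits used limma 3.58.1 in R 4.3.3 on the 32 libraries of a tissue in 7 groups, with a moderated F statistic over 6 drugs, moderated contrasts of each drug and saline, and Benjamini-Hochberg adjustment over all features. The tissues were compared over the 16 saline libraries, and drug and tissue over all 64. The labels do not say that libraries of a group come from separate animals, so that p-values measure the spread between these libraries. The fits were tested on simulated data with known changes.

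Named transcripts were the isoform with the largest mean share of each gene, every member called in a drug contrast or between the tissues, and the 5 transcripts most like Srsf5-RI, of which 1 is not reported here. Others, called only by the F statistic or against the own saline set or set beside Srsf5-RI and Srsf6-RI, were named after their values were seen. Transcript types, exons and sequences are those of GENCODE vM21 (GRCm38), in which 6 SR transcripts have another length than in the tables. The sample set of a drug was read from the number of NAc transcripts above 0 FPKM. The alternatives were other pseudocounts, filters, scalings and controls, the replicate number as a block, a mean-variance trend, an adjusted p of 0.0001, and leaving out each library.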

Additional observations from a re-analysis of the deposited data

Results flagged for a closer look

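Each group of 4 or 8 libraries was examined for a library far from the others, for 10 gene sums and 8 further features, and 13 of 252 groups held one; chance gives about 1 in 20. The libraries differed from the rest of their group by the gap rule for small samples, and no cause was tested.

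Among gene sums, Srsf2 was at 22.01 FPKM in NAc risperidone replicate 4 against 18.6 to 19.1 in the other libraries, and at 14.5 in PFCx venlafaxine replicate 2 against 12.3 to 12.7. Srsf4 was at 2.49 FPKM in PFCx ketamine replicate 4 against 3.79 to 3.88. Srsf6 was at 12.1 FPKM in PFCx risperidone replicate 2 against 12.7 to 12.9, and at 12.4 in PFCx venlafaxine replicate 3 against about 13.6. Srsf9 was at 13.5 FPKM in PFCx risperidone replicate 2 against 11.99 to 12.2.

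Among transcripts, Srsf6-RI was at 2.09 FPKM in PFCx mianserin replicate 1 against 1.68 to 1.71, and at 4.64 in PFCx ketamine replicate 3 against 3.14 to 3.31. The coding Srsf6 isoform was at 6.56 FPKM in PFCx venlafaxine replicate 2 against 5.61 to 5.77. Coding Srsf2 was at 6.74 FPKM in PFCx risperidone replicate 2 against 7.54 to 7.66. The Srsf5 transcript ENSMUST00000152662 was at 8.04 FPKM in NAc haloperidol replicate 2 against 3.74 to 4.47. The Srsf1 transcript ENSMUST00000171976 was at 1.49 FPKM in NAc venlafaxine replicate 3 against 3.09 to 3.31, and at 6.94 in PFCx saline I replicate 4 against 0.610 to 3.41.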

How the results depend on the processing

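No result changed direction under the alternatives run. The fall of Srsf6-RI after mianserin kept its call in both tissues under the alternatives that used the threshold of 0.05, with adjusted p-values up to 0.0239 (NAc) and 0.0492 (PFCx). Its adjusted p-values of 0.000539 and 0.00819 do not pass a threshold of 0.0001. The counts of SR features that follow include Srsf5, on which the family was chosen. The share of all features called under the same setting is not given beside them. The counts therefore show how far they move with the setting, and not whether SR features differ from others. The counts of called SR features moved most with the choice of saline libraries. The depth limits these statements for isoforms under about 1 FPKM, and the cause of the shifts was not tested.

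With saline set I alone as control, SR calls over the 6 drug contrasts in the NAc went from 4 to 23 transcripts and from 2 to 8 gene sums, and in the PFCx from 0 to 1 gene sum. With saline set II alone they were 11 transcripts and 1 gene sum in the NAc, and 19 transcripts (from 3) and 4 gene sums in the PFCx. Against the own saline set, the NAc contrasts gave 2 transcripts and 0 gene sums. For the F statistic, set I alone gave 7 isoform shares in the NAc (from 4), and 1 gene sum (from 0) and 2 coding shares (from 1) in the PFCx. Set II alone gave in the PFCx 8 transcripts (from 4), 4 gene sums, 3 isoform shares (from 1) and 2 coding shares. Against the own saline set the F statistic gave 2 transcripts (from 10), 1 gene sum (from 5) and 2 isoform shares in the NAc, with 2 PFCx transcripts.

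At an adjusted p of 0.0001 the F statistic called 1 SR transcript in each tissue, 0 gene sums, 0 isoform shares and 1 coding share (from 3) in the NAc, and 0 coding shares in the PFCx. A pseudocount of 0.1 gave 2 gene sums in the NAc, and between the tissues 4 transcripts (from 7) and 2 gene sums (from 5). A mean of at least 1 FPKM gave 3 gene sums in the NAc and 1 in the PFCx, rescaling to the 75th percentile gave 1 gene sum in the PFCx, and untransformed percent shares gave 2 in the PFCx. Between the tissues, set I alone gave 2 gene sums and 0 isoform shares (from 1), and set II alone gave 2 and 2.

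Within each tissue, same-numbered libraries of different groups did not deviate together (mean correlation 0.0244 in the NAc and 0.0413 in the PFCx, with lowest values of -0.05 and -0.0973), so the numbers were not taken as pairs there. The check did not compare NAc with PFCx libraries of the same group and number, so it cannot decide whether the tissues are paired. With the replicate block, the F statistic gave 1 gene sum in the PFCx and the tissue comparison 0 isoform shares.

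Leaving out each library in turn, the NAc contrasts gave 2 to 6 transcripts and 1 to 4 gene sums. The F statistic gave 2 to 5 gene sums and 2 to 5 isoform shares in the NAc, and 2 to 5 transcripts, 0 to 1 gene sums and 1 to 2 isoform shares in the PFCx. The tissue comparison gave 4 to 7 transcripts, 3 to 5 gene sums, 0 to 2 isoform shares and 0 to 1 coding shares.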

Other observations

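Summed over all 10 genes, the 22 retained-intron transcripts of the SR family were at 78.2 ± 5.07 FPKM after saline in the NAc (n = 8) and 67.6 ± 2.77 after mianserin (n = 4), a ratio of 0.865. In the PFCx they were at 63.9 ± 2.84 and 56.7 ± 3.63, a ratio of 0.887. The 26 coding transcripts were at 73.9 ± 6.06 and 76.3 ± 5.49 in the NAc and at 71.1 ± 2.95 and 74.3 ± 2.31 in the PFCx. These sums include Srsf5, on which the family was chosen, and were not tested. The retained-intron sum of Srsf5 alone was 16.1 FPKM after saline and 7.63 after mianserin (NAc), or 13.1 and 6.93 (PFCx). Those of Srsf2, Srsf4 and Srsf6 were also lower in both tissues. Srsf1 and Srsf3 were each lower in a single tissue. Srsf11 was higher after mianserin, at 32.1 against 29.2 (NAc) and 29.4 against 26.1 (PFCx). The ratios therefore do not show a fall shared by the family.

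After saline, 3 SR transcripts differed between the saline sets in the PFCx: Srsf6-NMD (set II minus set I -0.96, adjusted p = 0.0441), the retained-intron Srsf11 transcript ENSMUST00000089922 (0.56, adjusted p = 0.0384) and the Srsf5 transcript ENSMUST00000138434 (1.39, adjusted p = 0.0284).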
